A study of Bos taurus with 34 samples.

Results

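The microRNAs (miRNAs) bta-miR-199a-3p, bta-miR-199a-5p, bta-miR-199b and bta-miR-214, a group known from platelets and stroma, were followed in the cell-free fraction of blood from dairy cows. They were taken by name from count files of 800 bovine miRNA names, so 4 of 800 names are described. The animals were 6 healthy cows and 11 cows with subclinical endometritis (SCE), in which the lining of the uterus is inflamed but the cow shows no outward sign, classed by endometrial cytology and biopsy. Each cow was sampled early and late after calving, at day 25 and day 45 in the sample labels and at 21 and 44 days in the design text. The labels name the tissue as blood serum and the design text as plasma, and no treatment, breed or age is given. For healthy cow 3 the early and late files held identical counts, and the early one was left out. This gave 5 healthy libraries at day 25, 6 at day 45 and 11 SCE libraries at each day, 33 in all.

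miRNAs are short RNAs that pair with messenger RNAs through a seed near their 5′ end and lower protein output. A hairpin precursor gives 2 arms, 5p and 3p, that differ in sequence and seed. Mammalian miR-199 and miR-214 hairpins lie antisense inside dynamin genes, and miR-214 shares a long primary transcript with 1 of the miR-199a hairpins that the factor TWIST1 drives in mesenchymal cells. They are known from fibroblasts, smooth muscle and fibrosis, and miR-199a-3p is also abundant in platelets. In the mouse uterus, miR-199a-3p has been linked to control of the prostaglandin enzyme COX-2, and miR-199a-5p acts on caveolin-1 in fibroblasts. In the RefSeq annotation of assembly ARS-UCD2.0, MIR214 and MIR199A-1 both lay within the non-coding RNA gene LOC132342463 inside DNM3, MIR199A-2 lay within DNM2 and MIR199B within DNM1. The 2 MIR3604 copies overlapped MIR199A-2 and MIR199B, and MIR3120 overlapped MIR214. The counts of miR-3604 differed from those of miR-199a-3p by at most 0.576% in any library, so the 2 names gave nearly the same counts, and miR-3604 was not counted as a further miRNA. In mammals the 3p arms of miR-199a and miR-199b have the same sequence, so miR-199a-3p counts cannot be given to 1 hairpin. The name bta-miR-199b carries no arm.

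Library totals ran from 678389 to 28872153 counts, and both libraries of SCE cow 10 were the shallowest. miR-486, a red blood cell miRNA, took 3.95% to 81.08% of a library's counts, with group medians of 45.25% and 48.04% in healthy cows and 10.82% and 36.47% in SCE cows at day 25 and day 45. Levels below are CPM, counts scaled to a library of 1e+06 after TMM scaling, a scaling by the trimmed mean of miRNA ratios that limits the pull of such a dominant miRNA. Nothing in the labels says that a library is anything but 1 sample of 1 cow, so spread between cows and spread between preparations cannot be told apart. In a cell-free sample, fewer releasing cells and less RNA released per cell cannot be told apart either.

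Within the group, the 3p arm of miR-199a dominated. Over all libraries miR-199a-3p held 79.41% of the counts of the 4 names, miR-199b 13.96%, miR-199a-5p 4.176% and miR-214 2.451%. Mean levels were 265.5 CPM for miR-199a-3p, 45.72 CPM for miR-199b, 13.52 CPM for miR-199a-5p and 7.877 CPM for miR-214, which placed them at ranks 92, 147, 199 and 225 of 800 names. All 4 had counts in 33 of 33 libraries, and all passed the filter on low counts in every comparison. miR-199a-3p lay above miR-199b in 33 of 33 libraries, miR-199b above miR-199a-5p in 32 and miR-199a-5p above miR-214 in 28. The last 2 of this order were thus the least separated. Ligation and PCR can favour some miRNA ends over others, so levels of different miRNAs are compared here only as counts.

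bta-miR-199a-3p, the abundant arm, varied more between the libraries of a group than between the group means. In healthy cows at day 25 it stood at 753.2, 259.0, 50.28, 513.4 and 97.1 CPM in cows 1, 2, 4, 5 and 6. The lowest, median and highest levels were 128.6, 299.1 and 679.5 CPM in healthy cows at day 45. In SCE cows they were 49.33, 142.9 and 472.5 CPM at day 25 and 87.94, 141.7 and 611.9 CPM at day 45. The groups overlapped at both days. No SCE cow lay above the highest healthy cow at either day, while 1 of 11 at day 25 and 4 of 11 at day 45 lay below the lowest. Group means were 334.6 ± 295.9 (SD, n = 5) and 212.7 ± 165.7 CPM (SD, n = 11) at day 25, and 347.3 ± 187.5 (SD, n = 6) and 242.3 ± 186.4 CPM (SD, n = 11) at day 45, for healthy and SCE cows. The log2 fold change in SCE against healthy cows was -0.72 with SE 0.63 at day 25 (edgeR adjusted p = 0.5205) and -0.46 with SE 0.46 at day 45 (edgeR adjusted p = 0.7276). With the counts of a cow's libraries summed it was -0.69 with SE 0.40 and a 95% interval from -1.50 to 0.13 (edgeR adjusted p = 0.3455), the lowest p of the 4 names in that comparison.

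bta-miR-199a-5p, the minor arm, was scarcer and ranged more widely. Healthy cows 1, 2, 4, 5 and 6 had 13.63, 7.271, 1.327, 13.28 and 6.156 CPM at day 25, and at day 45 the healthy cows ran from 3.981 through a median of 17.51 to 63.71 CPM. SCE cows ran from 1.399 through 10.09 to 24.91 CPM at day 25 and from 0.2376 through 7.902 to 40.09 CPM at day 45. At day 25, 4 of 11 SCE cows exceeded the healthy range and none lay under it, and at day 45, none exceeded it and 3 lay under it. The log2 fold change in SCE against healthy cows was 0.27 with SE 0.63 at day 25 (edgeR adjusted p = 0.8459) and -0.53 with SE 0.67 at day 45 (edgeR adjusted p = 0.8233). The day-45 value rested on healthy cow 1, without which it was 0.18.

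bta-miR-199b stood at 94.48, 18.09, 9.289, 127.1 and 26.86 CPM in healthy cows 1, 2, 4, 5 and 6 at day 25. Cows 1 and 5 stood apart upward, as they did for miR-199a-3p. At day 45 healthy cows ran from 13.37 through a median of 35.49 to 140.9 CPM. SCE cows ran from 8.238 through 17.87 to 135.3 CPM at day 25 and from 12.37 through 28 to 109.2 CPM at day 45, inside or close to the healthy range. The log2 fold change in SCE against healthy cows was -0.47 with SE 0.66 at day 25 (edgeR adjusted p = 0.7259), 0.085 without healthy cow 5, and -0.57 with SE 0.51 at day 45 (edgeR adjusted p = 0.7006).

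bta-miR-214 was the scarcest, with 2 to 755 counts per library. Healthy cows 1, 2, 4, 5 and 6 had 7.907, 6.561, 1.917, 9.453 and 5.037 CPM at day 25, and at day 45 healthy cows ran from 2.07 through a median of 9.307 to 17.89 CPM. SCE cows ran from 1.487 through 2.798 to 18.61 CPM at day 25 and from 0.1188 through 6.459 to 20.8 CPM at day 45. Both ends of the SCE range lay outside the healthy range, with 2 of 11 SCE cows above and 2 below at day 25, and 3 above and 1 below at day 45. Log2 fold changes in SCE against healthy cows were -0.05 with SE 0.60 at day 25 (edgeR adjusted p = 0.9576) and 0.12 with SE 0.65 at day 45 (edgeR adjusted p = 0.9597). The sign of both turned when single cows were left out.

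**Figure D1:**
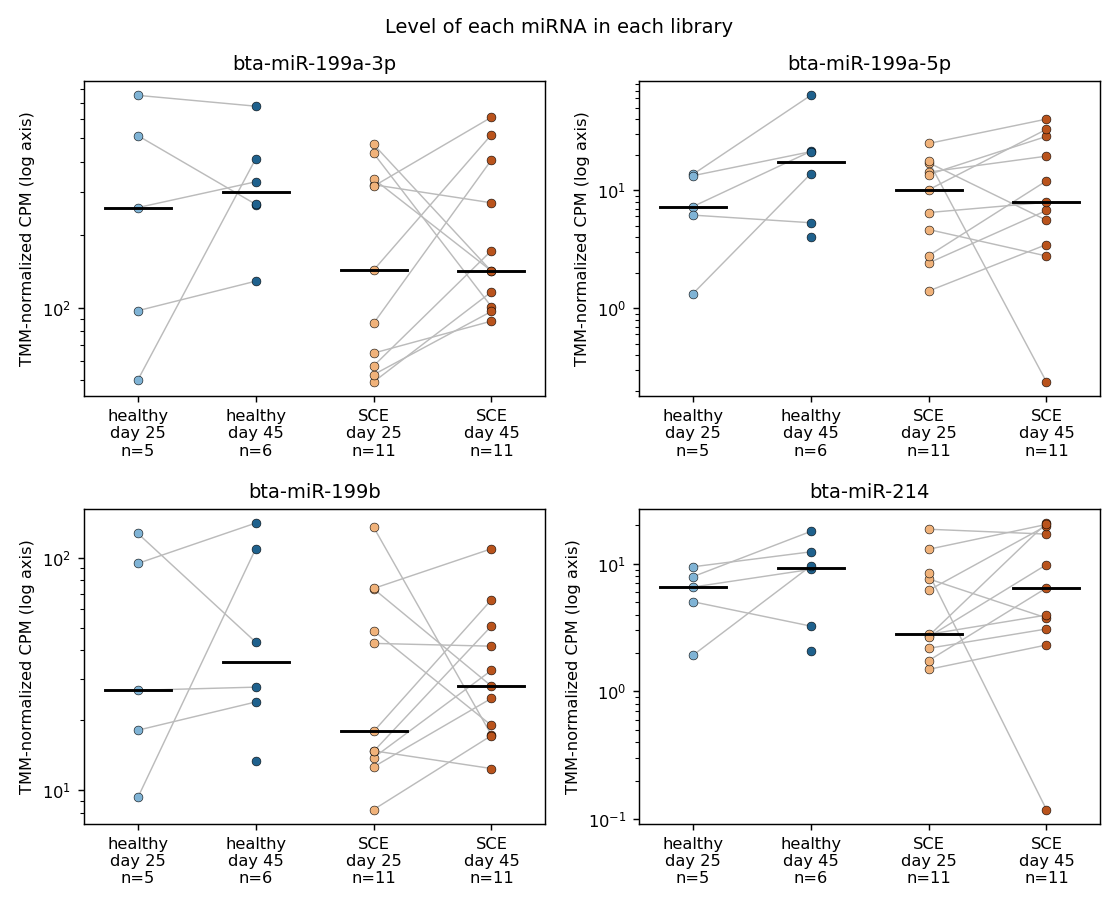
TMM-normalized CPM on a log axis of each miRNA in each of 33 libraries, by group. Points are libraries, grey lines join the 2 libraries of a cow and black bars are medians. The groups overlap for all 4 miRNAs, and the lowest points of miR-199a-5p (0.2376 CPM) and miR-214 (0.1188 CPM) belong to SCE cow 8 at day 45.

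Whether SCE cows differ from healthy cows was thus answered without a call. At day 25, none of the 4 was called by edgeR, where 0.269% of 372 miRNAs were called, and none was at an unadjusted p under 0.05, where 20.2% of all were. DESeq2 called none of the 4 either, against 2.68% of 522 miRNAs. At day 45 there were again 0 of 4 by edgeR (0% of 382), 0 of 4 at an unadjusted p under 0.05 (10.2%) and 0 of 4 by DESeq2 (0.134%). Over both days, none of the 4 was called by edgeR (0.239% of 418), at an unadjusted p under 0.05 (16.5%) or by DESeq2 (5.24%). The median log2 fold change of the 4 was -0.26 at day 25, -0.49 at day 45 and -0.53 over both days, beside -0.05, 0.11 and 0.04 over all miRNAs tested. With library totals in place of TMM, all 4 were higher in SCE cows at each day and over both days. That scaling moved the median of all miRNAs to 0.88, 0.71 and 0.77. Relative to that median over both days, miR-199a-3p and miR-199b stood at -0.59 and -0.64, miR-199a-5p at -0.15 and miR-214 at 0.12. With TMM the same positions were -0.73, -0.71, -0.42 and -0.06. A change of scaling moves most miRNAs together, so these positions are no separate test of the difference. A further fit included the log2 ratio between miR-486 and miR-23a, chosen here as a gauge of red blood cell RNA. miR-486 itself stood at -1.54 in SCE against healthy cows at day 25 (edgeR adjusted p = 0.296), so this covariate overlaps with status. The log2 fold changes at day 25 were then 0.72, 1.48, 0.76 and 0.96 for miR-199a-3p, miR-199a-5p, miR-199b and miR-214 (edgeR adjusted p of at least 0.3437). miR-199a-5p then had an unadjusted p of 0.01821 by edgeR, as 12.6% of 372 miRNAs had one under 0.05 in that fit. At day 45 the same covariate gave -0.12, -0.29, -0.12 and 0.12 (edgeR adjusted p = 0.9919 for each), so that miR-199a-3p and miR-199b, at -0.46 and -0.57 without it, moved towards 0. Over both days the covariate fit put miR-199a-3p and miR-199b at 0.03 and 0.06 relative to the median of all miRNAs. miR-199a-5p and miR-214 stood at 0.47 and 0.22 there. The part of red blood cell RNA in these values was not tested beyond this fit. At day 25, the 95% intervals without the covariate reached from -2.02 to 0.59 for miR-199a-3p and from -1.04 to 1.57 for miR-199a-5p, and the latter includes a log2 fold change of 1 in both directions.

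**Figure D2:**
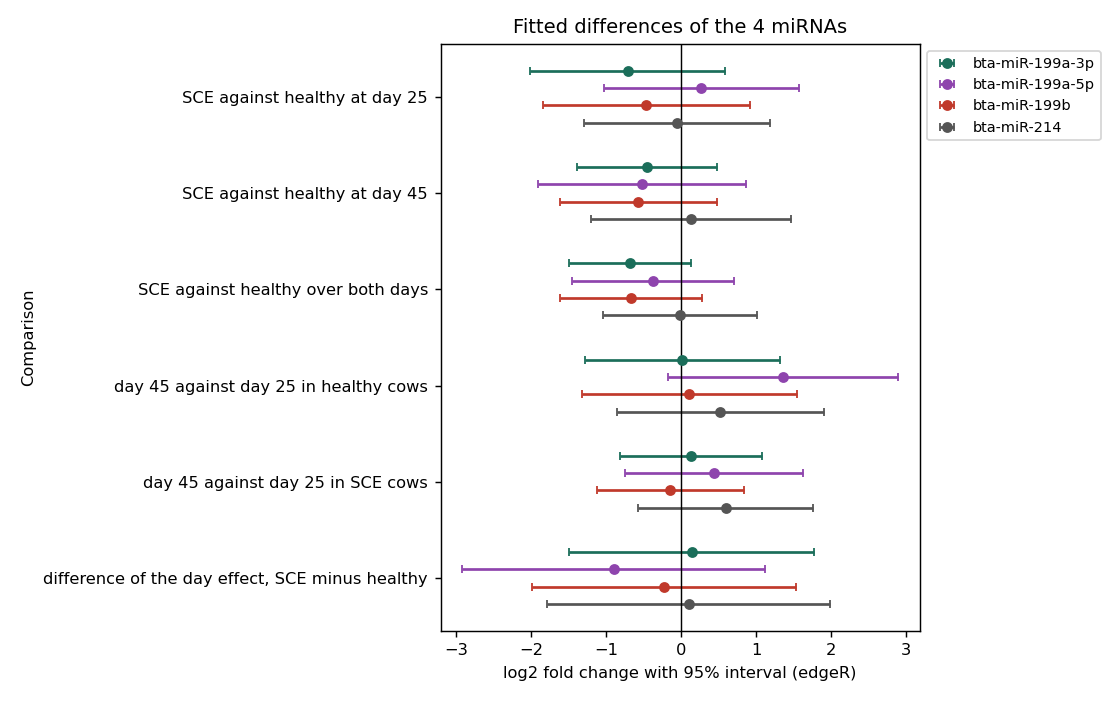
Log2 fold change with its 95% interval from the edgeR fits (horizontal axis) of the 4 miRNAs in 6 comparisons (vertical axis). All 24 intervals include 0, and the widest belongs to miR-199a-5p in the difference of the day effect, from -2.92 to 1.11. The fits between days shown here do not block on the cow. With that block, 1 of the 4 had an unadjusted p under 0.05 by edgeR in healthy cows, where 0.87% of 345 miRNAs did.

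From day 25 to day 45, the question being whether levels move with time after calving, miR-199a-5p had the highest value in healthy cows. Its log2 fold change was 1.36 with SE 0.73 and a 95% interval from -0.18 to 2.89 (edgeR adjusted p = 0.9999), and it was higher at day 45 in 4 of 5 cows with both days, by 10.39-fold in cow 4 and a median of 2.938-fold. The value of cow 4 rests on 9 counts of miR-199a-5p at day 25 and 197 at day 45. miR-214 was at 0.52, miR-199b at 0.10 and miR-199a-3p at 0.01, the last 2 turning below 0 with DESeq2 size factors. With the cow as a block, the pairing of the days gave 0.43 for miR-199a-3p, 1.47 for miR-199a-5p, 0.48 for miR-199b and 0.69 for miR-214 (edgeR adjusted p = 0.9968 for each). miR-199a-5p then had an unadjusted p of 0.04643 by edgeR, where 0.87% of 345 miRNAs had one under 0.05. Healthy cow 4 had the highest ratio of day 45 to day 25 for each of the 4 miRNAs, between 5.004 for miR-214 and 11.77 for miR-199b, while its day-25 library had the lowest level of each among healthy cows of that day. In SCE cows the log2 fold changes were 0.13 for miR-199a-3p, 0.43 for miR-199a-5p, -0.15 for miR-199b and 0.59 for miR-214, with edgeR adjusted p of at least 0.8544. Higher levels at day 45 were found in 7, 8, 6 and 8 of 11 SCE cows in the same order. The directions of miR-199a-3p and miR-199b turned with single cows, to -0.16 without SCE cow 11 and 0.31 without SCE cow 8.

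By edgeR, 0 of 4 miRNAs were called between days in healthy cows (0% of 345), 0 at an unadjusted p under 0.05 (2.9%) and 0 by DESeq2 (0%). In SCE cows the counts were 0 of 4 by edgeR (0% of 346), 0 at an unadjusted p under 0.05 (4.05%) and 0 by DESeq2 (0%). The difference of the day effect between SCE and healthy cows was -0.90 with SE 0.996 for miR-199a-5p (edgeR adjusted p = 0.9884), 0.14 for miR-199a-3p, -0.24 for miR-199b and 0.10 for miR-214. None of the 4 was called there by edgeR (0% of 406), none had an unadjusted p under 0.05 (1.72%) and DESeq2 called none (0%). Healthy libraries of day 25 enter the status comparison, the day comparison and this difference, so these are not separate evidence. A cow's early and late levels correlated above 0 for each of the 4, but none of these correlations passed adjustment. Over 16 cows, log2 CPM at day 25 and day 45 correlated at Pearson r = 0.316 for miR-199a-3p (permutation p = 0.231, adjusted 0.416), 0.206 for miR-199a-5p (permutation p = 0.445, adjusted 0.595), 0.166 for miR-199b (permutation p = 0.529, adjusted 0.595) and 0.187 for miR-214 (permutation p = 0.506, adjusted 0.595). Spearman's rho was 0.274, 0.335, 0.144 and 0.353, with permutation p of 0.304, 0.202, 0.595 and 0.18 (adjusted 0.365, 0.289, 0.595 and 0.289), and r without the 2 cows farthest from the median was 0.0967, 0.171, 0.345 and 0.000864.

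Ratios of 2 counts within a library need no scaling, and they were compared next. Of the reads of both miR-199a arms, the 5p arm made up 4.89 ± 2.94% (SD, n = 33 libraries of 17 cows). In healthy cows at day 25 the share was 1.78% in cow 1 (100 of 5625 counts, 95% Wilson interval 1.46% to 2.16%), 2.73% in cow 2, 2.57% in cow 4, 2.52% in cow 5 and 5.96% in cow 6. SCE cows at that day ran from 2.58% through a median of 4.63% to 7.28%. Healthy cows 2 and 6 thus lay inside the SCE range and cow 1 under it. Cows 4 and 5 stood at its lower end, which SCE cow 14 set with 9 of 349 counts (95% Wilson interval 1.36% to 4.83%). Cow 4 had 9 of 350 counts. On the log2 scale with 0.5 added to each count, the ratio of 3p to 5p was 5.06 ± 0.67 (SD, n = 5) for the healthy cows, while SCE cows had 4.31 ± 0.49 (SD, n = 11), a difference of -0.76 with SE 0.34 (exact permutation p = 0.0288, two-sided, adjusted p = 0.417 over 20 ratio tests). The difference stayed below 0 whichever healthy cow was left out, but its size varied. It was -0.58 without cow 1 (exact permutation p = 0.0879) and -1.04 without cow 6 (exact permutation p = 0.00293, adjusted p = 0.0586). Without cow 2, 4 or 5 the exact permutation p was 0.0527, 0.0586 or 0.0659, in tests with fewer healthy cows. At day 45 the difference was 0.17 with SE 0.62 (exact permutation p = 0.88) and it turned to -0.22 without SCE cow 8. Since the 3p name may collect reads of several hairpins, this ratio is between names, and intervals of shares cover counting error only.

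The ratio of miR-214 to miR-199a-5p moved the same way in all healthy cows with both days. Only 1 of the miR-199a hairpins lies with MIR214, so miR-199a-5p counts cannot all be given to the shared transcript. The ratio was lower at day 45 in 5 of 5, by 0.77 on the log2 scale with SE 0.17 (exact permutation p = 0.0625, the smallest 5 pairs can give, adjusted p = 0.417). For cow 4 at day 25 it rests on 13 counts of miR-214 and 9 of miR-199a-5p. In SCE cows it was higher in 5 of 11, with a mean difference of 0.26 (exact permutation p = 0.387). At day 45 the ratio was -0.997 ± 0.47 (SD, n = 6) for the healthy cows, while SCE cows had -0.50 ± 0.47 (SD, n = 11), with 5 of 11 above the highest healthy value (exact permutation p = 0.0587, adjusted p = 0.417). At day 25 it was -0.24 ± 0.48 (SD, n = 5) for the healthy cows, while SCE cows had -0.76 ± 0.89 (SD, n = 11), the opposite order (exact permutation p = 0.243). None of the 20 ratio tests passed adjustment, and 1 had an unadjusted p under 0.05.

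**Figure D3:**
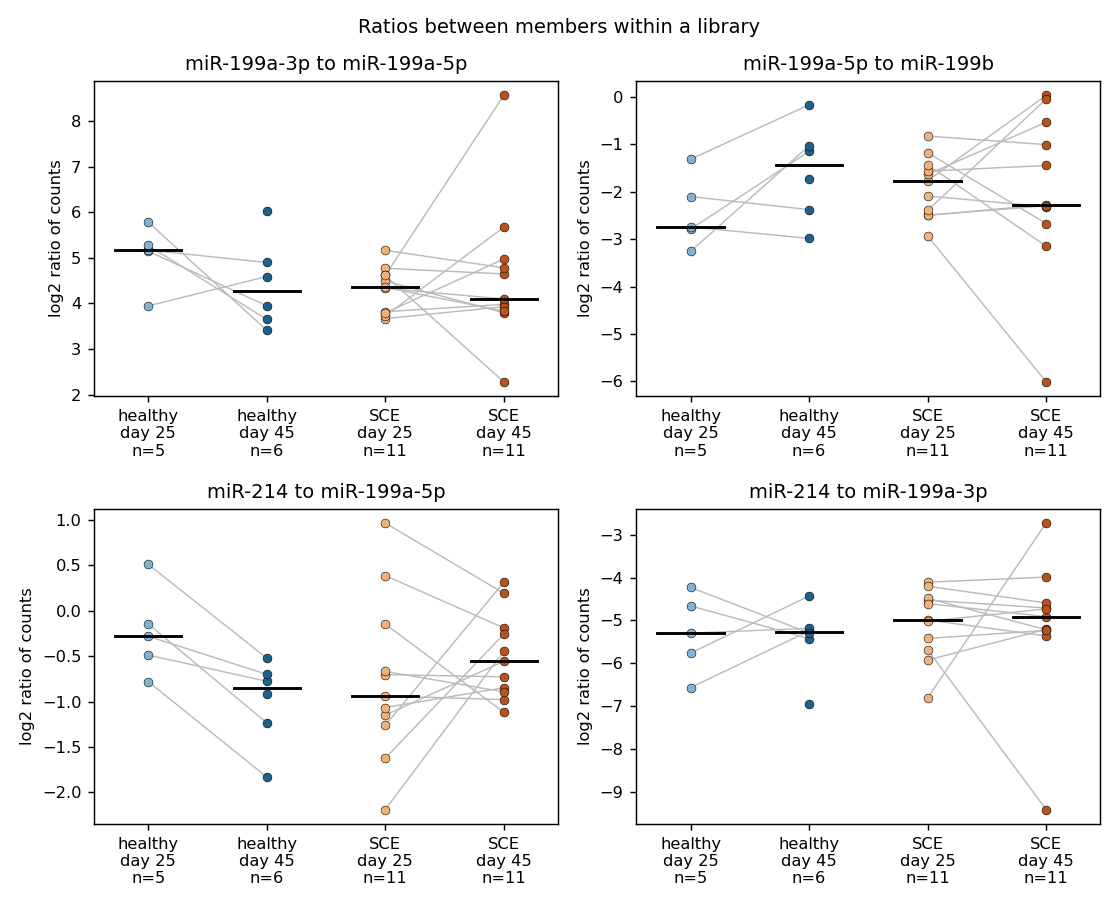
Log2 ratio of counts between 2 miRNAs of the same library, by group. Points are libraries, grey lines join the 2 libraries of a cow and black bars are medians. The lines of the 5 healthy cows all go down for miR-214 to miR-199a-5p, and SCE cow 8 at day 45 is the far point in the other 3 panels, with a log2 ratio of 3p to 5p of 8.56.

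One library set these ratios apart. In SCE cow 8 at day 45, with 14207289 counts in all, miR-199a-5p had 4 counts and miR-214 had 2, while miR-199a-3p had 1696 and miR-199b 290. The same cow had 166 counts of miR-199a-5p and 79 of miR-214 at day 25. The share of the 5p arm was 0.235% (95% Wilson interval 0.0915% to 0.603%), below all other libraries. Against the median of the other 10 SCE libraries of that day, log2 CPM was lower by 4.61 for miR-199a-5p and by 4.83 for miR-214, the third and second lowest of 418 miRNAs. For miR-199a-3p and miR-199b it stood at -0.63 and -0.81, close to the median of all miRNAs at -0.54. miR-127 and miR-125b, which were also low in that library, stood at -2.60 and -2.70, at ranks 56 and 50 from the lowest. At the other end, SCE cow 10 at day 45 had a 5p share of 16.8%, which rests on 22 of 131 counts in the shallowest library (95% Wilson interval 11.4% to 24.1%).

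Across cows all 6 pairs of the 4 miRNAs correlated positively, with the highest r for miR-199a-5p and miR-214. Over 17 cows, with the mean log2 CPM of a cow's libraries, these 2 correlated at Pearson r = 0.917 (permutation p = 2e-05, the smallest that 100000 resamples can give, adjusted 0.00036) and Spearman rho = 0.912 (permutation p = 2e-05, adjusted 0.00036). Without the 2 cows farthest from the median r was 0.896, in SCE cows alone 0.911 (n = 11, permutation p = 0.00028), in healthy cows alone 0.937 (n = 6, exact permutation p = 0.00556), and 0.902 to 0.942 when any 1 cow was left out. Among 416 miRNAs each of the 2 was the closest to the other. In the other pairs the partner ranked between 6 and 46, the last being miR-199b for miR-214, so many miRNAs outside the group stood closer to a member than its partners did. The arms miR-199a-3p and miR-199a-5p correlated at r = 0.797 (permutation p = 0.0001, adjusted 0.0009, rho = 0.794 with permutation p = 0.00034, adjusted 0.00204, r = 0.706 without the 2 farthest cows). Next came miR-199a-3p with miR-199b at r = 0.765 (permutation p = 0.00028, adjusted 0.00168, rho = 0.681 with permutation p = 0.00344, adjusted 0.0155, r = 0.622 without the 2 farthest cows). miR-199a-5p with miR-199b stood at r = 0.709 (permutation p = 0.00172, adjusted 0.00774, rho = 0.669 with permutation p = 0.00438, adjusted 0.0158, r = 0.533 without the 2 farthest cows). miR-199a-3p with miR-214 stood at r = 0.693 (permutation p = 0.0026, adjusted 0.00936, rho = 0.789 with permutation p = 0.0003, adjusted 0.00204, r = 0.676 without the 2 farthest cows). The loosest pair was miR-199b with miR-214 at r = 0.592 (permutation p = 0.0132, adjusted 0.0339, rho = 0.574 with permutation p = 0.018, adjusted 0.0405, r = 0.428 without the 2 farthest cows). In SCE cows alone this pair was at 0.479 (permutation p = 0.137), and without SCE cow 8 at 0.748. All values of a cow share its library total and scaling factor, and the median r of each of the 4 to all miRNAs was between -0.0445 and 0.0968. Adjustment was over 18 relations, and whether pairs differ from each other in r was not tested.

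**Figure D4:**
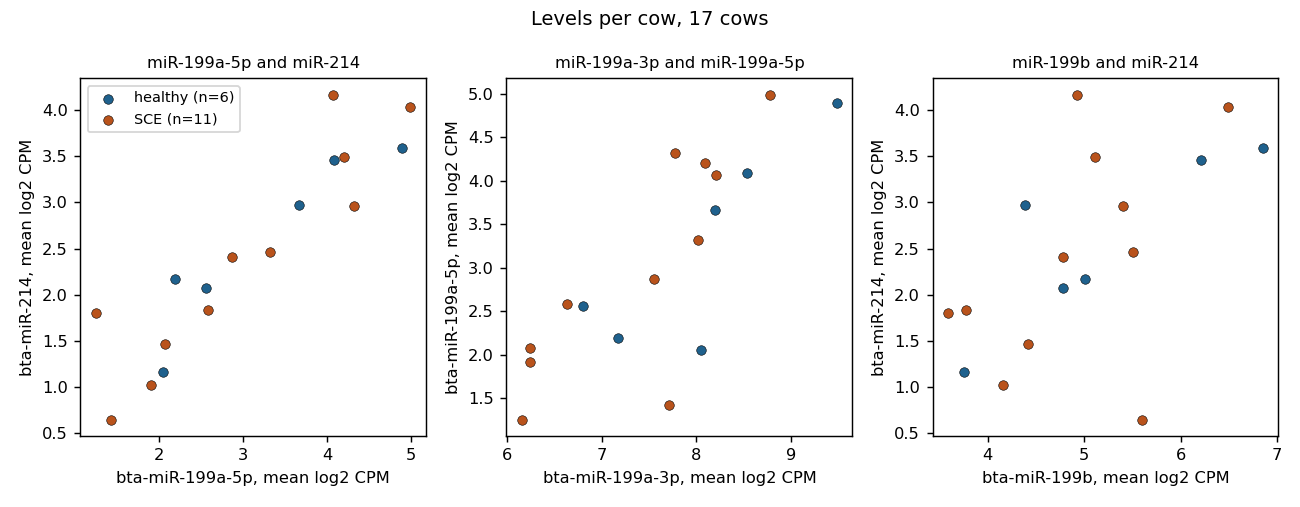
Mean log2 CPM per cow of 3 pairs of miRNAs, 1 point for each of 17 cows, healthy in blue and SCE in orange. miR-199a-5p and miR-214 lie along a line (r = 0.917), and miR-199b and miR-214 scatter most (r = 0.592).

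The miRNAs most like each of the 4 over the same 17 cows are given as descriptions. miR-127, an imprinted miRNA of the DLK1-DIO3 region, was the closest outside the group to miR-199a-3p (r = 0.868), miR-199a-5p (0.901) and miR-214 (0.873), and stood at 0.627 with miR-199b. For miR-199a-3p the next were miR-125b, which is rich in mesenchymal tissue, at 0.855 and miR-10225a at 0.847. miR-199a-5p was followed by miR-125b at 0.822 and miR-126-3p at 0.803, which is known from endothelium and is also on the platelet list. The next for miR-214 were miR-665 at 0.844 and miR-215 at 0.833. miR-199b was closest to miR-451, a miRNA made in maturing red blood cells, at 0.901 (0.895 with library totals alone), then to miR-2285bc at 0.867 and to miR-144, of the same locus as miR-451, at 0.825. With miR-451 the other 3 stood at 0.639 for miR-199a-3p, 0.756 for miR-199a-5p and 0.591 for miR-214.

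The name of the group points to platelets and stroma, and lists of miRNAs known from each were read beside it. Such lists do not identify a cell of origin here, and several of their miRNAs are shared between sources. Of 16 platelet miRNAs, 6 correlated above 0 with miR-199a-3p, with a median r of -0.284, and 7 with each of the other 3, with medians of -0.145 for miR-199a-5p, -0.203 for miR-199b and -0.0652 for miR-214. For miR-199a-5p they ran from miR-221 at -0.861 to miR-126-3p at 0.803, and for miR-214 from miR-221 at -0.795 to miR-126-3p at 0.787. Of 13 stromal miRNAs, 10, 11, 9 and 10 were above 0 with miR-199a-3p, miR-199a-5p, miR-199b and miR-214, with medians of 0.419, 0.449, 0.31 and 0.439. Of 11 red blood cell miRNAs, 10 were above 0 with miR-199a-3p and 11 with each of the others, with medians of 0.507, 0.479, 0.541 and 0.545. Of 8 white blood cell miRNAs, medians were -0.0517, 0.116, 0.0828 and 0.164. Over all miRNAs 47.8%, 53.1%, 56.2% and 54.3% were above 0. Differences between the lists in these values were not tested.

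By edgeR, none of the tested miRNAs of the platelet or stromal list was called in any of the 6 comparisons. At an unadjusted p under 0.05 in SCE against healthy cows, the platelet list had 3 higher and 4 lower of 16 at day 25, 1 and 2 at day 45 and 3 and 3 over both days. The stromal list had 3 and 2 of 12 at day 25, 2 and 3 of 12 at day 45 and 3 and 2 of 13 over both days. Of all miRNAs 20.2%, 10.2% and 16.5% had such a p, in either direction. DESeq2 called 1, 0 and 1 of the platelet and 2, 0 and 3 of the stromal list, against 2.68%, 0.134% and 5.24% of all. In healthy cows between days, 0 platelet and 1 stromal miRNA had an unadjusted p under 0.05, in SCE cows 2 and 1, in the difference of the day effect 0 and 1, against 2.9%, 4.05% and 1.72% of all, and DESeq2 called none of either list. On the stromal list miR-10b, an abundant HOX cluster miRNA, stood at -1.92, -1.60 and -1.70 at day 25, day 45 and over both days (edgeR adjusted p = 0.185, 0.36 and 0.0793), and miR-143, a smooth muscle miRNA, at -0.95, -0.18 and -0.49 (edgeR adjusted p = 0.296, 0.958 and 0.649). The lowest p of that list belonged to miR-195 at day 25, at 2.75 (edgeR adjusted p = 0.0695), and to miR-145 at day 45, at 2.09 (edgeR adjusted p = 0.277). On the platelet list the abundant miR-191 stood at -1.03, -0.14 and -0.26 (edgeR adjusted p = 0.22, 0.949 and 0.745) and miR-22-3p at 0.67, -0.07 and 0.30 (edgeR adjusted p = 0.281, 0.967 and 0.633). Its lowest p belonged to miR-151-3p at day 25 (-1.24, edgeR adjusted p = 0.117), miR-107 at day 45 (-1.13, edgeR adjusted p = 0.277) and miR-28 over both days (1.02, edgeR adjusted p = 0.191). The red and white blood cell lists had no edgeR call in the 3 status comparisons, with median log2 fold changes over both days of -0.41 and 0.44, and DESeq2 called 1 white blood cell miRNA at day 45. The median log2 fold change of the stromal list was -0.62, -0.39 and -0.51, and that of the platelet list -0.13, -0.04 and -0.02. The summed share of the red blood cell list had medians of 48.6% and 50.3% in healthy and 14.4% and 39.9% in SCE cows at day 25 and day 45. That of the platelet list was 14.3% and 20.5% against 30.5% and 24% in SCE cows, and that of the stromal list 3.26% and 6.96% against 2.37% and 5.0%. These are shares of all counts of a library, so a lower share of miR-486 raises the other shares by construction. The share of miR-486 correlated over 17 cows with miR-199a-3p at r = 0.653 (permutation p = 0.00466, adjusted 0.014, rho = 0.581 with permutation p = 0.0172, adjusted 0.0405, r = 0.459 without the 2 farthest cows) and with miR-199b at r = 0.58 (permutation p = 0.0153, adjusted 0.0344, rho = 0.618 with permutation p = 0.00886, adjusted 0.0266, r = 0.399 without the 2 farthest cows). In SCE cows alone r was 0.531 and 0.736 (n = 11, permutation p = 0.0951 and 0.0106) for miR-199a-3p and miR-199b. In healthy cows alone it was 0.736 and 0.385 (n = 6, exact permutation p = 0.0972 and 0.397). On levels scaled by library totals alone the values over 17 cows were 0.188 and 0.094, where a high share of miR-486 lowers every other level by construction. With miR-486 left out before normalization they were 0.691 and 0.639. With miR-199a-5p and miR-214, r was 0.404 and 0.238 (permutation p = 0.107 and 0.355, adjusted 0.214 and 0.581, rho = 0.419 and 0.321 with permutation p = 0.095 and 0.209, adjusted 0.19 and 0.289, r = 0.192 and -0.0122 without the 2 farthest cows).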

How the data were processed

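The values are whole-number read counts for each bovine miRNA name, used as the authors deposited them, with 1 file for every library. Per the labels' protocols, libraries were made with the TruSeq Small RNA kit, and no molecular identifiers are named. The tools bcl2fastq 2.17.1.14 and DESeq2 and the genome build UMD3.1 are named, per the submitters' processing notes. How reads were aligned, counted and shared between identical miRNAs was not given in the sources used here.

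Comparisons used edgeR 4.0.16 (R 4.3.3) and its two-sided quasi-likelihood test, after TMM scaling and edgeR's default low-count filter. Calls were made at a Benjamini-Hochberg adjusted p under 0.05 over all miRNAs tested. It was checked on simulated data. Standard errors are the absolute log2 fold change divided by the square root of F. DESeq2 1.42.0 was an alternative. Log2 CPM used a prior count of 2 and ratios a prior count of 0.5. Ratios were compared by exact permutation and correlations with 100000 resamples (scipy 1.17.1, numpy 2.4.6). The filter and scaling used the libraries of each comparison, and levels those of all 33.

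The same cow gave both days, so the animal number pairs libraries. Over 16 cows, deviations from group means correlated within a cow at a median r of 0.253 across miRNAs, with r over 0.1 in 11. A fit that blocks on the cow was run as an alternative.

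The 4 miRNAs, the lists and the relations were chosen with earlier results of these data known. The named miRNAs are the 4, the 3 closest to each by r among miRNAs that passed the filter of the summed fit, and list miRNAs that were abundant or of lowest p. No list miRNA was called by edgeR, and calls by DESeq2 on the lists are given as counts only. miR-221, whose r was the lowest of the platelet list with miR-199a-5p, miR-199b and miR-214, was named after its value was seen. With miR-199a-3p the lowest was miR-28 at -0.743. The relations between days were added after the data were seen.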

Additional observations from a re-analysis of the deposited data

Results flagged for a closer look

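In healthy cows at day 45, miR-199a-5p in cow 1 stood at 63.71 CPM, far from the other 5 libraries of that group, the nearest of which was at 21.36 CPM. Its gap took 0.709 of the group's range. This was 1 of 16 sets of values looked at in this way (4 levels and 4 ratios in both healthy groups). Chance sets apart about 1 in 20 such groups if values are normally distributed. The levels were taken as CPM, and on a log axis this gap takes a smaller part of the range, so that rate may not hold here.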

How the results depend on the processing

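None of the 4 miRNAs was called in any of the 6 comparisons under any alternative run, and the lowest adjusted p of any of them was 0.174, for miR-199a-3p over both days without healthy cow 6. Directions of these uncalled values were less stable, and the causes were not tested. With library totals alone, SCE against healthy turned to 0.065, 0.19 and 0.74 for miR-199a-3p, miR-199b and miR-214 at day 25, to 0.38, 0.45 and 0.15 for miR-199a-3p, miR-199a-5p and miR-199b at day 45, and to 0.18, 0.61, 0.13 and 0.89 for miR-199a-3p, miR-199a-5p, miR-199b and miR-214 over both days. With the covariate built from miR-486 and miR-23a, the values turned to 0.72, 0.76 and 0.96 for miR-199a-3p, miR-199b and miR-214 at day 25 and to 0.11, 0.55, 0.14 and 0.30 over both days. miR-214 at day 25 turned to 0.074 with no filter and to 0.094 without miR-486 in the table. Between days in healthy cows, miR-199a-3p and miR-199b turned to -0.085 and -0.0091 with DESeq2 size factors, -0.088 and -0.0086 by DESeq2 and -0.10 and -0.0040 without miR-486, and miR-199a-3p to -0.022 with no filter. With the cow as a block (the pairing of days), miR-199b in SCE cows turned to 0.13 and the difference of the day effect to -0.059 for miR-199a-3p and -0.13 for miR-214, and no call changed.

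When each cow was left out, values that turned ranged, for SCE against healthy at day 25, from -0.75 to 0.085 for miR-199b and -0.38 to 0.15 for miR-214. At day 45 they ranged from -0.82 to 0.18 for miR-199a-5p and -0.084 to 0.47 for miR-214, and over both days from -0.67 to 0.31 and -0.24 to 0.27. Between days they ranged from -0.28 to 0.40 (miR-199a-3p) and -0.39 to 0.59 (miR-199b) in healthy cows and from -0.16 to 0.48 and -0.38 to 0.31 in SCE cows. The difference of the day effect ranged from -0.19 to 0.58 for miR-199a-3p, -0.84 to 0.42 for miR-199b and -0.14 to 0.45 for miR-214. Among log2 ratios in SCE against healthy cows, 3p to 5p at day 45 ranged from -0.22 to 0.50, miR-199a-5p to miR-199b from -0.68 to 0.0025 at day 45 and -0.17 to 0.27 over both days, miR-214 to miR-199a-5p from -0.085 to 0.17 over both days and miR-214 to miR-199a-3p from -0.082 to 0.50 at day 25. Between days, miR-214 to miR-199a-3p ranged from -0.098 to 0.50 in healthy cows and from -0.44 to 0.34 in SCE cows, where 3p to 5p ranged from -0.074 to 0.55 and miR-199a-5p to miR-199b from -0.33 to 0.22.

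Correlations among the 4 kept their sign in every alternative run, and miR-199b with miR-214 was 0.479 in SCE cows alone. Those with the share of miR-486 were 0.188 (miR-199a-3p), 0.094 (miR-199b) and -0.182 (miR-214) on library totals, 0.531 for miR-199a-3p in SCE cows alone and -0.0122 for miR-214 without the 2 farthest cows. Correlations with the log2 library total are given in the order miR-199a-3p, miR-199a-5p, miR-199b and miR-214. Over 17 cows they were 0.194, 0.0338, 0.173 and 0.102 (adjusted permutation p of at least 0.595). In SCE cows alone they were -0.11, -0.245, -0.15 and -0.141. In healthy cows alone they were 0.633, 0.823, 0.801 and 0.928 (n = 6, exact permutation p = 0.161, 0.0556, 0.0611 and 0.00833, unadjusted). The value for miR-199a-5p on library totals was -0.0491. Why healthy and SCE cows differed here was not tested. Depth was lowest in the library of SCE cow 10 at day 45, with 22 counts of miR-199a-5p and 16 of miR-214. Some deeper libraries held fewer. At day 25, SCE cow 10 had 20 and 4, and healthy cow 4 had 9 and 13. SCE cow 14 had 9 of miR-199a-5p at day 25, and SCE cow 8 had 4 and 2 at day 45.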
